A study of Mus musculus with 11 samples.

Results

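The genes of the heterotrimeric G proteins and of the regulators of G protein signaling (RGS) were examined in RNA sequencing of mouse heart ventricle. Members were taken by gene name and mean level: protein-coding genes called Gna, Gnb, Gng or Gngt (the α, β and γ subunits) or Rgs with a number, with a mean over all mice of at least 1 CPM (a count scaled to a common library size). Of 51 genes of these families among the 22608 genes of the table, 32 reached that level: 10 Gα, 5 Gβ, 6 Gγ and 11 RGS genes. The 3 members closest above the limit were Rgs7 (1.30 CPM), Rgs16 (1.36) and Rgs17 (1.38), and the 2 genes closest below it were Gng7 (0.883) and Gna15 (0.723). The other 17 genes below the limit, among them Rgs1, Rgs18, Gnaz and Gngt1, averaged at most 0.622 CPM.

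RNA came from the ventricles of 11 male mice on a C57BL/6J background, aged between 8 and 16 weeks according to the methods of the study. Complete deletion (CD) mice, a model of Williams-Beuren syndrome, carry on 1 copy of chromosome 5 a deletion of the whole interval that corresponds to the one lost in the syndrome. They were compared with wild-type (WT) littermates. Mice received JZL184 at 8 mg/kg or its vehicle by intraperitoneal injection once a day for 10 days. The 4 groups are called WT VEH, with 2 mice, and WT JZL184, CD VEH and CD JZL184, with 3 mice in each. JZL184 blocks monoacylglycerol lipase, the enzyme that breaks down the endocannabinoid 2-arachidonoylglycerol, and the series asks what the drug does to the heart of CD mice. The vehicle groups are marked as untreated in one label and as vehicle in another, and nothing says which mice shared a litter, cage or day. Mice are named here by the letters of the data columns, which the labels tie to a group but not to a numbered mouse. All 14 tested genes of the deleted interval were lower in every CD mouse than in any WT mouse, and none of the 32 members lies in it. Totals ran from 69660232 to 92251443 counts per mouse, so that 3 counts corresponded to 0.0325 to 0.0431 CPM.

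A heterotrimeric G protein couples a receptor at the cell surface to enzymes and channels inside the cell. An activated receptor makes the α subunit exchange GDP for GTP, after which Gα and the Gβγ pair each act on effectors, until Gα hydrolyses its GTP and the trimer forms again. RGS proteins speed up that hydrolysis and so shorten the signal. In the heart, Gs raises cyclic AMP after β-adrenergic stimulation, Gi and Go mediate the slowing by muscarinic and adenosine receptors, and Gq and G11 carry angiotensin, endothelin and α1-adrenergic signals to phospholipase Cβ. Cannabinoid receptors couple mainly to Gi and Go.

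Compared per length of transcript, the most abundant members were Rgs5, a regulator strongly expressed in pericytes, at group means of 187 to 282 CPM per kilobase of transcript (kb), and Gnas, which encodes the stimulatory Gαs, at 161 to 175. Next among the Gα genes came Gnai2 at 70.2 to 88.0 and Gna12 at 30.0 to 34.9 CPM per kb, and Gnai1 was lowest at 0.594 to 0.904. Gnao1 (4.04 to 5.15) and Gnaq (3.92 to 4.16) were neighbours in that order, with ranges of group means that overlapped. Gnb2 (51.3 to 60.0) and Gnb1 (24.4 to 29.1) led the Gβ genes, and Gng5 (82.9 to 113) and Gng11 (24.5 to 42.8) the Gγ genes. Among RGS genes, Rgs2 (14.9 to 22.9) came next to Rgs5, and Rgs17 was lowest at 0.149 to 0.196 CPM per kb.

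**Figure D1:**
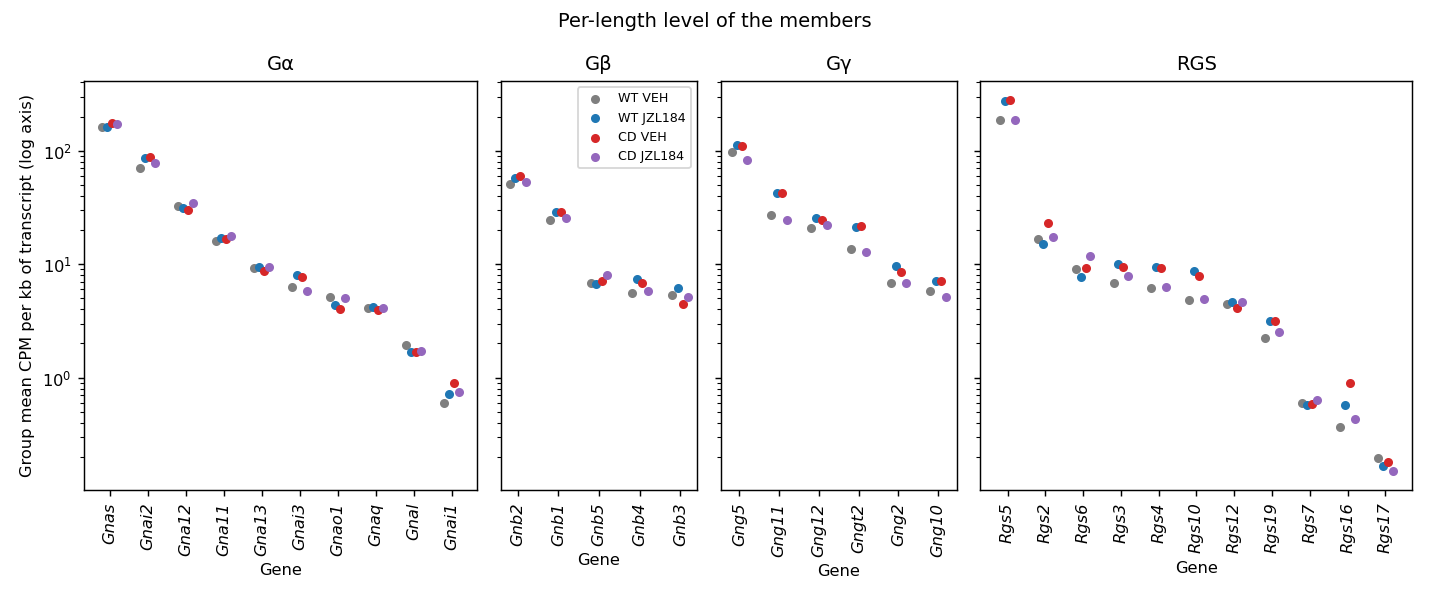
Group mean level of each of the 32 members in CPM per kb of transcript, on a log axis, in the blocks Gα, Gβ, Gγ and RGS; each dot is the mean of a group of 2 or 3 mice. Gnas and Rgs5 stand above the other members, and for Rgs5, Gng11 and Gngt2 the WT JZL184 and CD VEH dots lie above the WT VEH and CD JZL184 dots.

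Summed over the 6 Gγ genes, the per-length level was 169 to 175 CPM per kb in the WT VEH mice, 206 to 241 in WT JZL184, 196 to 222 in CD VEH and 148 to 162 in CD JZL184. The sum over the 11 RGS genes, most of it Rgs5, was 237.6 to 238.5, 322 to 359, 327 to 385 and 242 to 245 CPM per kb in the same order. For both sums the WT JZL184 and CD VEH mice lay above all mice of the other 2 groups. In the Gβ sum, too, the mice of these groups lay above the rest, with smaller gaps (91.5 to 95.5, 103 to 113, 105 to 109.6 and 92.8 to 100.4), whereas the Gα sum stayed between 301 and 343 CPM per kb in all mice. Of the Gγ sum, Gng5 made up 49.5 to 57.3% over all mice. These sums carry no offset for transcript length, with which Gng5, Gng2 and Gng12 lost calls that are given below.

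Of the 32 members, 29 passed the filter of the test (an average of at least 1 log2 CPM), and Rgs7, Rgs16 and Rgs17, which did not, are given without a test. Counts were compared with edgeR's quasi-likelihood test fitted over all 11319 genes that passed, with Benjamini-Hochberg adjustment over all of them, and a gene was called at an adjusted p below 0.05. Levels are CPM scaled by edgeR's TMM factors, and differences are log2 fold-changes ± SE. Values are listed by the letters of the mice, C and D in WT VEH, A, B and D in WT JZL184, and A, C and E in both CD groups. The p-values measure the spread between these mice alone. Between CD VEH and WT VEH, 13 members were higher and 1 was lower among 29 tested, against 30.4% of all genes called. The 13 were Gnai1, Gnai2, Gnb1, Gnb2, Gnb4, Gng11, Gng12, Gngt2, Rgs2, Rgs3, Rgs4, Rgs5 and Rgs10, and the lower gene was Gnao1. The median log2 fold-change was 0.24 over the members and 0.01 over all genes. Of all genes, 15.0% were called higher and 15.4% lower. In CPM, the groups did not overlap for 20 members that were higher and 4 that were lower in CD VEH, where 64.0% of all genes did not overlap.

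With JZL184, the calls lay in opposite directions in the 2 genotypes. In WT mice JZL184 was associated with 12 members higher and none lower, where 29.4% of all genes were called (15.4% higher and 14% lower), with a median of 0.25 over members and -0.00 over all genes. In CD mice 12 members were lower and 3 were higher (Gnao1, Gnb5 and Rgs6), where 33.9% of all genes were called (16.8% higher and 17.0% lower), with a median of -0.19 over the members and -0.00 over all genes. Between the JZL184 groups, 13 members were lower in CD and 2 were higher (Gnb5 and Rgs6), where 38.3% of all genes were called (18.2% higher and 20.1% lower). The genotype by treatment interaction, the difference with JZL184 in CD mice minus that in WT mice, was called for 19 members, 16 with a negative and 3 with a positive value, where 51.5% of all genes were called (25.3% positive and 26.2% negative). By class, it was called for 3 of 10 Gα, 4 of 5 Gβ, 6 of 6 Gγ (3 with an offset for transcript length) and 6 of the 8 tested RGS genes. The median interaction was -0.44 over members and -0.01 over all genes. CD JZL184 against WT VEH gave no call among the 29 members with edgeR (4 had an unadjusted p under 0.05, and DESeq2 called 1, Rgs6), where 0.186% of all genes were called (0.0442% higher and 0.141% lower). The groups did not overlap for 17 higher and 2 lower members with JZL184 in WT mice (54.7% of all genes), for 7 higher and 16 lower with JZL184 in CD mice (54.6%), for 3 higher and 13 lower between the JZL184 groups (47.9%) and for 8 higher and 3 lower between CD JZL184 and WT VEH (36.6%). These comparisons share groups of mice, so the counts are not independent of each other. The JZL184 difference within WT and that within CD share no mice.

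**Figure D2:**
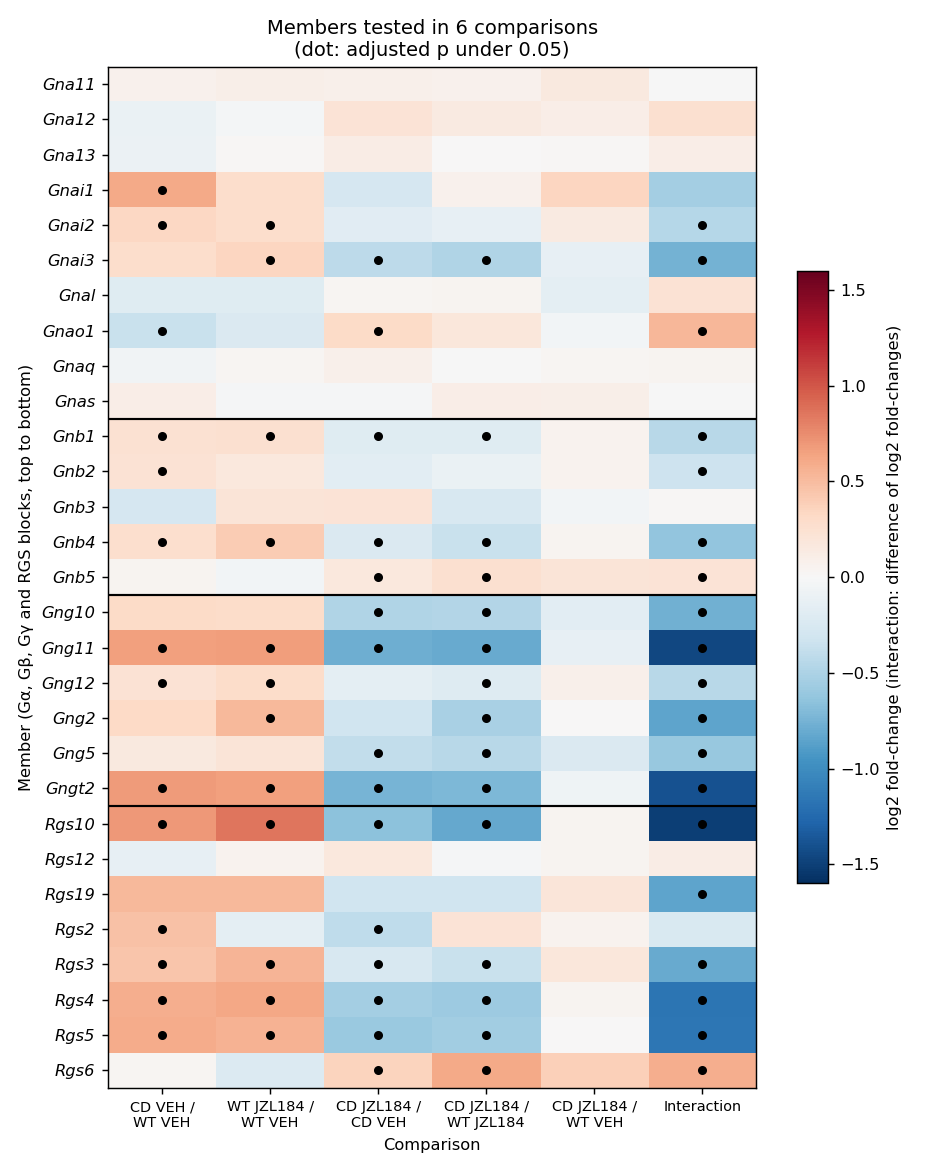
log2 fold-change of the 29 tested members in 5 comparisons and the genotype by treatment interaction (colour scale from -1.6 to 1.6; blocks Gα, Gβ, Gγ and RGS from top to bottom); a dot marks an adjusted p under 0.05. The columns for CD VEH and WT JZL184 against WT VEH are mostly red, those for CD JZL184 against CD VEH and against WT JZL184 mostly blue, and the column for CD JZL184 against WT VEH holds no dot.

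In 12 members of the 29 tested every CD VEH and WT JZL184 mouse lay above every WT VEH and CD JZL184 mouse, and in none did all lie below; among all tested genes these arrangements held for 14.4% and 13.8%. The 12 were Gnb1, Gnb4, all 6 Gγ genes, Rgs3, Rgs4, Rgs5 and Rgs10. With 2 WT VEH mice the comparisons against that group rest on few libraries, and where 1 of them is left out the other is assumed to vary like the mice of the other groups. Without WT VEH mouse C, 1 member (Rgs5) instead of 14 was called between CD VEH and WT VEH, where the share of all genes called was 3.41%, and without WT VEH mouse D 5 members were called, where it was 10.7%. Leaving out CD VEH mouse A or E gave 8 and 7 members, where 17.1% and 17.5% of all genes were called. For JZL184 in WT mice the count was 5 without WT VEH mouse C, 4 without D and 7 without WT JZL184 mouse B, where 4.93%, 9.11% and 18.5% of all genes were called. For JZL184 in CD mice it was 9 without CD VEH mouse A and 9 without E, where 18.5% and 18% of all genes were called. The interaction count stayed between 15 and 20 whichever mouse was left out, and the share of all genes between 40.5% and 56.6%.

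**Figure D3:**
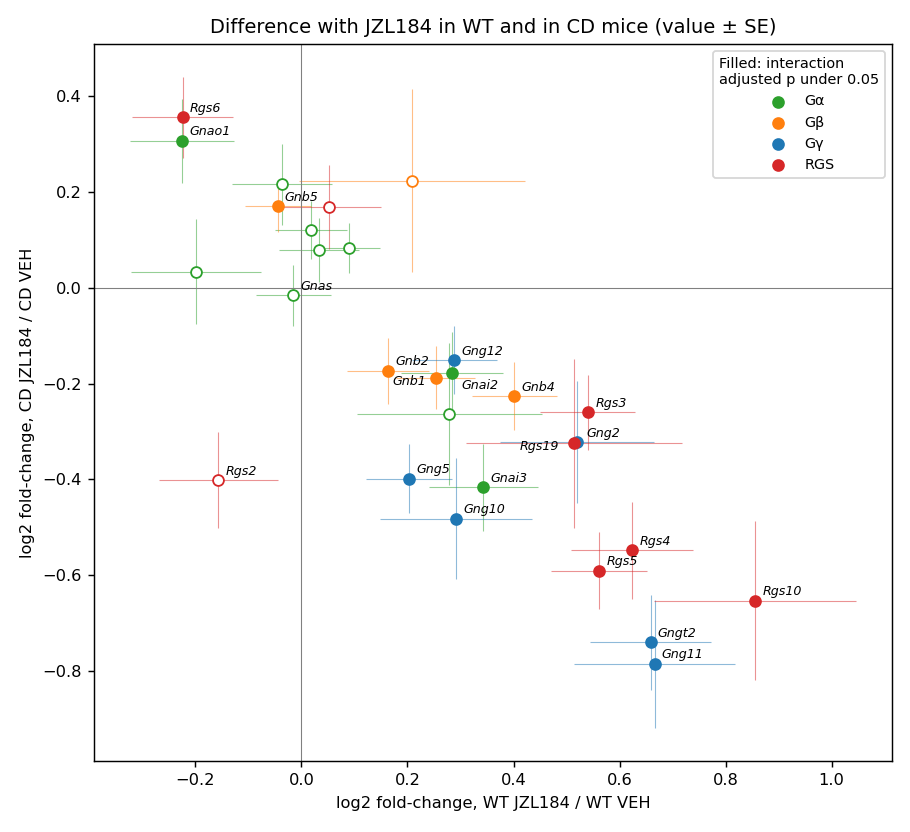
log2 fold-change with JZL184 in WT mice (x axis) and in CD mice (y axis) for the 29 tested members, each with its SE in both directions; filled points passed the interaction test. The 16 filled points at the lower right are positive in WT and negative in CD mice, and Gnao1, Gnb5 and Rgs6 lie at the upper left.

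These are levels in whole ventricle, in which fewer cells of a type and less RNA per cell cannot be told apart, and other measures differed between the groups as well. Transcripts of the mitochondrial genome took 39.4 to 41.1% of counts in WT VEH and 36.4 to 40.1% in CD JZL184, but 45.0 to 46.6% in WT JZL184 and 43.5 to 44.7% in CD VEH. The 5 endothelial markers (Pecam1, Cdh5, Kdr, Tie1 and Emcn) summed to 483 to 490.2 CPM in WT VEH, 743 to 766 in WT JZL184, 618 to 683 in CD VEH and 476 to 559 in CD JZL184, and all 5 were called negative in the interaction. The 5 macrophage and leukocyte markers, of which all 5 were called negative as well, summed to 82.8 to 86.9 CPM in WT VEH, 103 to 167 in WT JZL184, 109 to 133 in CD VEH and 76.7 to 86.1 in CD JZL184. The 5 fibroblast markers summed to 493 to 522 CPM in WT VEH, 664 to 814 in WT JZL184, 604 to 691 in CD VEH and 472 to 510.2 in CD JZL184, with 4 called negative. Col1a1 was the one not called (0.16 ± 0.21, adjusted p = 0.543). Without Dcn, the most abundant, the other 4 summed to 128 to 130 CPM in WT VEH and 140.3 to 177 in WT JZL184. In CD VEH they summed to 135 to 161 CPM and in CD JZL184 to 120 to 139.9, so that these groups overlapped. The 7 pericyte and smooth muscle markers, 5 called negative and 1 (Abcc9) positive, summed to 459 to 477 CPM in WT VEH, 478 to 543 in WT JZL184, 388 to 430.1 in CD VEH and 407 to 434 in CD JZL184. Abcc9 alone gave 292 to 306 CPM in WT VEH, 229 to 271 in WT JZL184, 182 to 229 in CD VEH and 246 to 277 in CD JZL184, and the other 6 summed to 167 to 171 CPM in WT VEH, 248 to 272 in WT JZL184, 201 to 214 in CD VEH and 153 to 171 in CD JZL184. Of the 7, Kcnj8, Myh11, Tagln and Pdgfrb were called higher in CD VEH than in WT VEH and Abcc9 was called lower. The 5 cardiomyocyte markers summed to 25409.7 to 25996 CPM in WT VEH, 16670.5 to 23287 in WT JZL184, 20121 to 23077 in CD VEH and 24904 to 26755 in CD JZL184, with 3 (Myh6, Actn2 and Ryr2) called positive. The interactions of Tnnt2 (0.17 ± 0.15, adjusted p = 0.355) and Tnni3 (-0.31 ± 0.14, adjusted p = 0.0699) were not called, and that of Tnni3 had the opposite sign. Without Myh6 the other 4 summed to 10505 to 10665 CPM in WT VEH, 8412 to 10959 in WT JZL184, 9814 to 10236 in CD VEH and 10172 to 11167 in CD JZL184. These sums without the most abundant gene of a list were added after the values were seen. The 5 erythroid markers ranged over 2029 to 2488 CPM in WT VEH, 2637 to 5498 in WT JZL184, 2027 to 18785 in CD VEH and 1416 to 2189 in CD JZL184, and all 5 were called negative. Of the CD VEH mice 1 alone reached 18785 CPM, and the median of that group was 2878. None of these markers was at 0 in any mouse. Of the lymphocyte, adipocyte, platelet and atrial lists, 2 genes (Pf4 and Nppa) passed the filter, and of these Pf4 alone was called in the interaction, with a negative value. The atrial genes Myl7 and Sln reached at most 38 and 13 counts. Cd3e, Cidec and Sln were at 0 in at least 1 mouse. The part of cell content and of the mitochondrial share in the results was not tested.

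Among the Gα genes, those of the Gs, Gq/11 and G12/13 classes showed no called difference in any of the 6 comparisons, whereas those of the Gi/o class did. Gnas, which couples β-adrenergic receptors to adenylyl cyclase, measured 476 and 497 CPM in WT VEH, 457, 495 and 492 in WT JZL184, 528, 518 and 527 in CD VEH and 497, 540.0 and 520.0 in CD JZL184. All 4 groups lay between 457 and 540 CPM, and the interaction was -0.00 ± 0.10 (adjusted p = 0.998). Every CD VEH mouse lay above every WT VEH mouse, and every CD JZL184 mouse above every WT JZL184 mouse. In these comparisons the groups did not overlap for 64.0% and 47.9% of all genes, and neither Gnas difference was called. Gnal, the related Gαolf of olfactory neurons, ran from 3.57 to 4.80 CPM with an interaction of 0.23 ± 0.16. Its exons overlap those of Mppe1 on the opposite strand, a gene with 292% of its CPM, so its counts are uncertain. Gnaq and Gna11, which activate phospholipase Cβ, ran from 21.7 to 25.0 and from 52.4 to 61.4 CPM, with interactions of 0.05 ± 0.10 and -0.01 ± 0.08. Gna12 and Gna13, which form a class of their own, ran from 97.1 to 121 and 29.1 to 34.9 CPM, with interactions of 0.25 ± 0.13 and 0.10 ± 0.09. Within these classes the value nearest to a call was Gna12 between CD JZL184 and CD VEH (0.22 ± 0.08, adjusted p = 0.0659), which 5 of 21 alternatives called, DESeq2 among them. The Gna12 interaction was called in 3 of 20.

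The Gi/o class holds the inhibitory subunits Gnai1, Gnai2 and Gnai3 and the related Gnao1. Gnai3 measured 22.1 and 19.2 CPM in WT VEH, 24.5, 28.6 and 25.6 in WT JZL184, 27.5, 21.8 and 26.2 in CD VEH and 18.7, 18.8 and 19 in CD JZL184. All CD JZL184 mice lay below every mouse of the other 3 groups, and 1 CD VEH mouse fell within the range of WT VEH. Gnai3 rose with JZL184 in WT mice (0.34 ± 0.10, adjusted p = 0.028) and fell with it in CD mice (-0.42 ± 0.09, adjusted p = 0.00661), with an interaction of -0.76 ± 0.14 (adjusted p = 0.00102). Without any 1 of WT VEH mice C and D and WT JZL184 mouse B, the first of these was not called (adjusted p = 0.0635, 0.217 and 0.0783). Gnai2, the most abundant inhibitory subunit, stood at 121 and 128 CPM in WT VEH, 134, 171 and 150.1 in WT JZL184, 162, 152 and 155 in CD VEH and 128, 147 and 139 in CD JZL184. The WT VEH mice reached no higher than the lowest CD JZL184 mouse, the CD JZL184 mice overlapped WT JZL184, and the CD VEH mice were all above WT VEH and CD JZL184. It was higher in CD VEH than in WT VEH (0.33 ± 0.10, adjusted p = 0.0264) and had a negative interaction (-0.46 ± 0.13, adjusted p = 0.0109), a call lost without WT VEH mouse C (adjusted p = 0.0524). The first was lost without either WT VEH mouse, without CD VEH mouse A or E and with an offset for transcript length, and the rise with JZL184 in WT mice (0.28 ± 0.10, adjusted p = 0.0444) was lost in 13 alternatives. Gnai1, present at 1.83 to 3.13 CPM, was called only between CD VEH and WT VEH (0.61 ± 0.17, adjusted p = 0.0231), a call lost without either WT VEH mouse or without CD VEH mouse E.

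Gnao1, which encodes the Gαo of neurons and cardiomyocytes, went the other way. Its level was 17.1 and 18.6 CPM in WT VEH, 14.2, 14.7 and 16.9 in WT JZL184, 12.4, 14.7 and 14.8 in CD VEH and 16.5, 18.4 and 17.0 in CD JZL184. The CD VEH mice were all below WT VEH and CD JZL184, and the WT JZL184 mice were below WT VEH. It fell in CD VEH mice compared with WT VEH (-0.35 ± 0.10, adjusted p = 0.0199), rose with JZL184 in CD mice (0.31 ± 0.09, adjusted p = 0.02) and had an interaction of 0.53 ± 0.13 (adjusted p = 0.00561). In WT mice the JZL184 difference was -0.23 ± 0.10 and did not pass (adjusted p = 0.099). Without CD VEH mouse A neither the first nor the second difference was called (adjusted p = 0.0682 and 0.0812), the first was also lost without either WT VEH mouse, and the second without CD JZL184 mouse C or E. The interaction held in every alternative. As a share of the per-length Gα sum, the Gi/o class made up 26.6 to 26.7% in WT VEH, 29.1 to 32.0% in WT JZL184, 29.1 to 30.6% in CD VEH and 26.4 to 27.6% in CD JZL184, with Gnai2 the largest part. The Gs class, almost all of it Gnas, made up 48.7 to 53.5% over all mice.

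Of the 5 Gβ genes, Gnb1, Gnb2 and Gnb4, which form dimers with Gγ, had a negative interaction, and Gnb5 a positive one. Gnb4 measured 14.7 and 13.4 CPM in WT VEH, 18.4, 18.2 and 19 in WT JZL184, 17.8, 15.4 and 17.7 in CD VEH and 14.3, 13.9 and 15.3 in CD JZL184. Every WT JZL184 and CD VEH mouse lay above every WT VEH and CD JZL184 mouse, with an interaction of -0.63 ± 0.11 (adjusted p = 0.000738). Gnb1 stood at 74.8 and 76.8 CPM in WT VEH, 84.0, 98.1 and 89.0 in WT JZL184, 89.0, 87.1 and 93.2 in CD VEH and 75.8, 82.6 and 78.0 in CD JZL184. Gnb2 stood at 72.3 and 78.6 CPM in WT VEH, 78.6, 90.7 and 84.2 in WT JZL184, 88.4, 86.1 and 90.3 in CD VEH and 72.9, 82.5 and 79.5 in CD JZL184. Gnb1 showed the same separation of groups as Gnb4 (interaction -0.44 ± 0.10, adjusted p = 0.00336), while for Gnb2 (-0.34 ± 0.10, adjusted p = 0.0175) 1 WT JZL184 mouse fell within the range of CD JZL184. The Gnb2 call was lost without WT VEH mouse C (adjusted p = 0.0925) and with an offset for transcript length (adjusted p = 0.188). Gnb3, at 7.46 to 14.6 CPM, varied widely within WT JZL184 and passed no comparison (interaction 0.02 ± 0.29).

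Gnb5 is set apart from the other β subunits in that it pairs with RGS proteins of the R7 class, to which Rgs6 and Rgs7 belong, in place of a Gγ. Gnb5 measured 12.3 and 12.5 CPM in WT VEH, 12.4, 11.4 and 12.2 in WT JZL184, 12.5, 12.9 and 12.9 in CD VEH and 14, 14.5 and 14.6 in CD JZL184. The 3 CD JZL184 mice were the highest of the 11, and the 8 others lay between 11.4 and 12.9 CPM. It was higher in CD JZL184 than in CD VEH (0.17 ± 0.06, adjusted p = 0.0329) and than in WT JZL184 (0.26 ± 0.06, adjusted p = 0.00455). The second difference held in every alternative, and the first was lost without any 1 of the CD JZL184 mice, without CD VEH mouse A or E, with upper quartile scaling and with no filter on low counts. The interaction (0.22 ± 0.08, adjusted p = 0.0465) was lost in 12 alternatives, DESeq2 and the omission of either WT VEH mouse among them. Rgs6, a partner of Gnb5 that in pacemaker and atrial cells restrains the muscarinic signal, measured 14.7 and 16 CPM in WT VEH, 13.6, 12.2 and 13.6 in WT JZL184, 15.8, 13.7 and 17.5 in CD VEH and 19.4, 20.7 and 20.1 in CD JZL184. All CD JZL184 mice lay above all others and the WT JZL184 mice were the lowest, all of them below every WT VEH and every CD VEH mouse. Rgs6 rose with JZL184 in CD mice (0.36 ± 0.08, adjusted p = 0.00954), was higher in CD than in WT under JZL184 (0.61 ± 0.09, adjusted p = 0.000873) and had an interaction of 0.58 ± 0.13 (adjusted p = 0.00307). All 3 calls held in every alternative. Against WT VEH, CD JZL184 mice had a Rgs6 log2 fold-change of 0.39 ± 0.10, with no overlap between the groups, that did not pass (adjusted p = 0.249), and that DESeq2 and a fit to these groups alone called. Rgs7bp, an anchor of R7 complexes at the membrane taken from a list of related regulators, was likewise higher in CD than in WT under JZL184 (0.73 ± 0.13, adjusted p = 0.002), while Rgs7, at 0.646 to 1.72 CPM, did not pass the filter of the test.

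All 6 Gγ genes had a negative interaction, and in all 6 the WT JZL184 and CD VEH mice lay above the WT VEH and CD JZL184 mice with no overlap. Gng11 and Gngt2 encode γ subunits that carry a farnesyl anchor, whereas most γ subunits carry a geranylgeranyl one. Gng11 measured 26.8 and 22.7 CPM in WT VEH, 38.1, 40.3 and 39.5 in WT JZL184, 44.2, 29.3 and 43.1 in CD VEH and 20.1, 24.2 and 23.4 in CD JZL184. Gngt2, first known from cone photoreceptors, stood at 7.34 and 8.16 CPM in WT VEH, 12.4, 13.5 and 10.8 in WT JZL184, 13, 11.3 and 12.9 in CD VEH and 7.62, 7.97 and 6.64 in CD JZL184. Both were about as high in WT JZL184 as in CD VEH, and CD VEH mouse C was lower than the other CD VEH mice in both. Gng11 rose in CD VEH mice compared with WT VEH (0.65 ± 0.15, adjusted p = 0.0105) and with JZL184 in WT mice (0.67 ± 0.15, adjusted p = 0.00988), and fell with JZL184 in CD mice (-0.79 ± 0.13, adjusted p = 0.00279), with an interaction of -1.45 ± 0.20 (adjusted p = 0.000291). For Gngt2 the same differences were 0.68 ± 0.11 (adjusted p = 0.00351), 0.66 ± 0.11 (adjusted p = 0.00363), -0.74 ± 0.10 (adjusted p = 0.00202) and -1.40 ± 0.15 (adjusted p = 0.000126). The interaction of both, and their fall with JZL184 in CD mice, held in every alternative. Between CD VEH and WT VEH, Gng11 lost its call without either WT VEH mouse and Gngt2 without mouse C (adjusted p = 0.0513), and the rise of Gng11 with JZL184 in WT mice was lost without mouse D (adjusted p = 0.0905). Gngt2 shares exon sequence with Abi3 on the opposite strand, whose CPM was 68.6% of its own, so its counts are uncertain.

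Gng10 measured 6.99 and 6.73 CPM in WT VEH, 7.02, 10.5 and 7.72 in WT JZL184, 8.76, 8.19 and 8.53 in CD VEH and 5.60, 6.55 and 6.09 in CD JZL184. Gng2, a widely used subunit, measured 3.47 and 3.49 CPM in WT VEH, 4.20, 5.81 and 4.98 in WT JZL184, 4.38, 4.03 and 4.67 in CD VEH and 3.85, 3.52 and 3.08 in CD JZL184. In both, WT JZL184 mouse B was the highest of the 11, and for Gng10 the other WT JZL184 mice lay below every CD VEH mouse. Their interactions were -0.77 ± 0.19 (adjusted p = 0.00577) and -0.84 ± 0.19 (adjusted p = 0.00384). Gng5 stood at 58.6 and 57.3 CPM in WT VEH, 65.2, 74.2 and 60.8 in WT JZL184, 65.2, 63.0 and 66.2 in CD VEH and 50.3, 51.0 and 46.2 in CD JZL184. The CD JZL184 mice were below all others, WT VEH included. Its interaction was -0.60 ± 0.11 (adjusted p = 0.00105), and it fell with JZL184 in CD mice (-0.40 ± 0.07, adjusted p = 0.00341). Gng12 had 24.4 and 23.5 CPM in WT VEH, 26.9, 32.2 and 28.8 in WT JZL184, 29.0, 27.1 and 28.5 in CD VEH and 24.2, 26.8 and 25.2 in CD JZL184. Its interaction was -0.44 ± 0.11 (adjusted p = 0.00532). The Gγ transcripts are among the shortest of the members, with median lengths of 515 to 1192 bases. With an offset for transcript length the interactions of Gng2 (-0.24 ± 0.17, adjusted p = 0.258), Gng5 (-0.06 ± 0.07, adjusted p = 0.557) and Gng12 (-0.16 ± 0.09, adjusted p = 0.189) were smaller and no longer called. Nor was the fall of Gng5 with JZL184 in CD mice (-0.09 ± 0.05, adjusted p = 0.221). The interactions of Gng10, Gng11 and Gngt2 remained called. The same sequence as in Gng5 occurs, at 97.6% identity or more, in 4 other annotated genes, and Gng2 shares sequence with Gm48283 on the opposite strand. None of these was among the genes of the table.

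Of the 8 RGS genes tested, Rgs3, Rgs4, Rgs5, Rgs10 and Rgs19 had a negative interaction and Rgs6, described above, a positive one. Rgs5 measured 456 and 444 CPM in WT VEH, 641, 711 and 640.4 in WT JZL184, 758, 642 and 639.8 in CD VEH and 450.0, 448 and 456 in CD JZL184. All CD VEH and WT JZL184 mice were at 639.8 CPM or more and all WT VEH and CD JZL184 mice at 456.1 or less. It rose in CD VEH mice compared with WT VEH (0.60 ± 0.09, adjusted p = 0.00278) and with JZL184 in WT mice (0.56 ± 0.09, adjusted p = 0.00274), and fell with JZL184 in CD mice (-0.59 ± 0.08, adjusted p = 0.00202), with an interaction of -1.15 ± 0.12 (adjusted p = 0.00011). These 4 calls held in every alternative, each mouse left out included. Rgs4, also of the R4 class and a brake on Gi and Gq signals, stood at 15.2 and 18.5 CPM in WT VEH, 29.9, 24.7 and 23.4 in WT JZL184, 27.3, 22.8 and 25.8 in CD VEH and 17.5, 17.2 and 17.3 in CD JZL184, again with no overlap. Its 4 values were 0.59 ± 0.12 (adjusted p = 0.00561), 0.62 ± 0.12 (adjusted p = 0.00446), -0.55 ± 0.10 (adjusted p = 0.00357) and -1.17 ± 0.15 (adjusted p = 0.000224), of which the first and second were lost without WT VEH mouse C (adjusted p = 0.0703 and 0.0589).

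Rgs5 and Rgs4 are also neighbours on chromosome 1 (GRCm38), where Rgs5 lies at chr1:169655501-169695813 on the plus strand and Rgs4 at chr1:169741477-169747642 on the minus strand, 45.7 kb apart with their 3′ ends towards each other. The 250 bases before the RefSeq start of each, and of Gnb5, are shown because Rgs5 and Rgs4 rose and fell in the same groups while Gnb5 had the opposite sign of interaction. The sequences are RefSeq's on build GRCm38.p6, 5′ to 3′ on the strand of the gene. Capitals mark 4 motifs on either strand, which overlap nowhere in these windows: TATAAA (a core promoter element), GGGCGG (bound by Sp1), TGACG (part of the cyclic AMP response element) and CATTCC (the core of an element of muscle genes).
Rgs5, chr1:169655251-169655500, plus strand: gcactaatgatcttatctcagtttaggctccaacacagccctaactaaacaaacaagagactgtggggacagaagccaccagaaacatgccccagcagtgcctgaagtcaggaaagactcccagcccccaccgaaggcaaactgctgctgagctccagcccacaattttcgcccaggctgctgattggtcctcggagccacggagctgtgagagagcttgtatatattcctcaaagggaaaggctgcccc
Rgs4, chr1:169747643-169747892, minus strand: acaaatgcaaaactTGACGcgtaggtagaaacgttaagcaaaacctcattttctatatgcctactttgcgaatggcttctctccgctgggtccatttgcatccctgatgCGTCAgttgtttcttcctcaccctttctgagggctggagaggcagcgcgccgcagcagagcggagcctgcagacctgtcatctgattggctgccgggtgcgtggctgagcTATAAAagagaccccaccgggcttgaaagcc
Gnb5, chr9:75306038-75306287, plus strand: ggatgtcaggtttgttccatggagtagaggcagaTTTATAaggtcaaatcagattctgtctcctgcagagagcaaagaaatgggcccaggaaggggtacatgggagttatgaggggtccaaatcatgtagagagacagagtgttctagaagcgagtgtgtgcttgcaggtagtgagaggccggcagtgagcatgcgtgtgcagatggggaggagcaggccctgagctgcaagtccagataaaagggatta
The window of Rgs4 holds TATAAA, beginning 31 bases before the start, and TGACG once on each strand, that of Gnb5 holds TATAAA on the opposite strand, and that of Rgs5 holds none of the 4. TATAAA occurred in 12.4% of all 32851 windows of this length, GGGCGG in 32.7%, TGACG in 17.8% and CATTCC in 12.6%. A RefSeq window was found for 26 of the 32 members, and 17 of these had GGGCGG in at least 1 window, where 35.4% of all genes with a window did. TATAAA was found for 4, TGACG for 5 and CATTCC for 3 of the 26, where 14.3%, 19.8% and 14.4% of all genes with a window had them. These are matches of letters and no measurement of binding.

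Rgs10, a short regulator of Gi signals known from leukocytes and platelets, measured 3.37 and 3.59 CPM in WT VEH, 4.57, 7.54 and 6.80 in WT JZL184, 5.59, 4.85 and 6.45 in CD VEH and 3.49, 3.38 and 3.87 in CD JZL184. The groups separated as for Rgs5, and the WT JZL184 mice spread from 4.57 to 7.54 CPM. It showed the largest interaction of the 29 members (-1.51 ± 0.25, adjusted p = 0.000664), which held in every alternative. The rise with JZL184 in WT mice was 0.86 ± 0.19 (adjusted p = 0.00885), lost without either WT VEH mouse, and the fall with JZL184 in CD mice was -0.65 ± 0.17 (adjusted p = 0.0126), lost without CD VEH mouse E and with a length offset. Between CD VEH and WT VEH Rgs10 rose as well (0.69 ± 0.19, adjusted p = 0.0195), a call lost without either WT VEH mouse, without CD VEH mouse E and with a length offset. Rgs3 stood at 26.9 and 26.6 CPM in WT VEH, 34.7, 40.5 and 41.5 in WT JZL184, 38.4, 34.9 and 36.1 in CD VEH and 27.7, 32.1 and 31.6 in CD JZL184, with an interaction of -0.80 ± 0.12 (adjusted p = 0.000364). Another gene, Gm5763, not in the table, shares up to 1410 bases with it at full identity. Rgs19, a regulator of Gi that binds the protein GIPC, had 2.99 and 2.86 CPM in WT VEH, 3.25, 5.54 and 3.77 in WT JZL184, 4.52, 3.51 and 4.50 in CD VEH and 3.15, 3.68 and 3.16 in CD JZL184, and its CD JZL184 mice overlapped WT JZL184 and CD VEH. Its interaction of -0.84 ± 0.27 (adjusted p = 0.0217) was lost without either WT VEH mouse and with a length offset, and no other comparison was called for it. Rgs12 passed none (13.2 to 17.8 CPM, interaction 0.12 ± 0.13). The untested Rgs16 was at 0.795 and 0.929 CPM in WT VEH, 1.31, 1.05 and 1.66 in WT JZL184, 2.85, 1.14 and 2.32 in CD VEH and 0.841, 1.11 and 1.08 in CD JZL184, with 2 CD VEH mice, A and E, above all others, and Rgs17 ran from 1.03 to 1.70 CPM.

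Rgs2, which acts mainly on Gq and opposes vasoconstrictor signals, had a pattern of its own among the called RGS genes. It measured 28.0 and 31.9 CPM in WT VEH, 25.2, 30.0 and 25.5 in WT JZL184, 42.6, 37.3 and 44.1 in CD VEH and 32.3, 34.3 and 27.4 in CD JZL184. All 3 CD VEH mice lay above the other 8, among which the WT JZL184 mice did not exceed 30.0 CPM. Rgs2 rose in CD VEH mice compared with WT VEH (0.46 ± 0.11, adjusted p = 0.0124) and fell with JZL184 in CD mice (-0.40 ± 0.10, adjusted p = 0.0116), whereas in WT mice the JZL184 difference was -0.16 ± 0.11 (adjusted p = 0.305). Its interaction of -0.24 ± 0.15 did not pass (adjusted p = 0.192), so that a difference in the response to JZL184 between genotypes was not shown for it. Without WT VEH mouse C the first difference was not called (adjusted p = 0.123), and the second was not without CD JZL184 mouse E or CD VEH mouse E (adjusted p = 0.0509 and 0.0548).

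**Figure D4:**
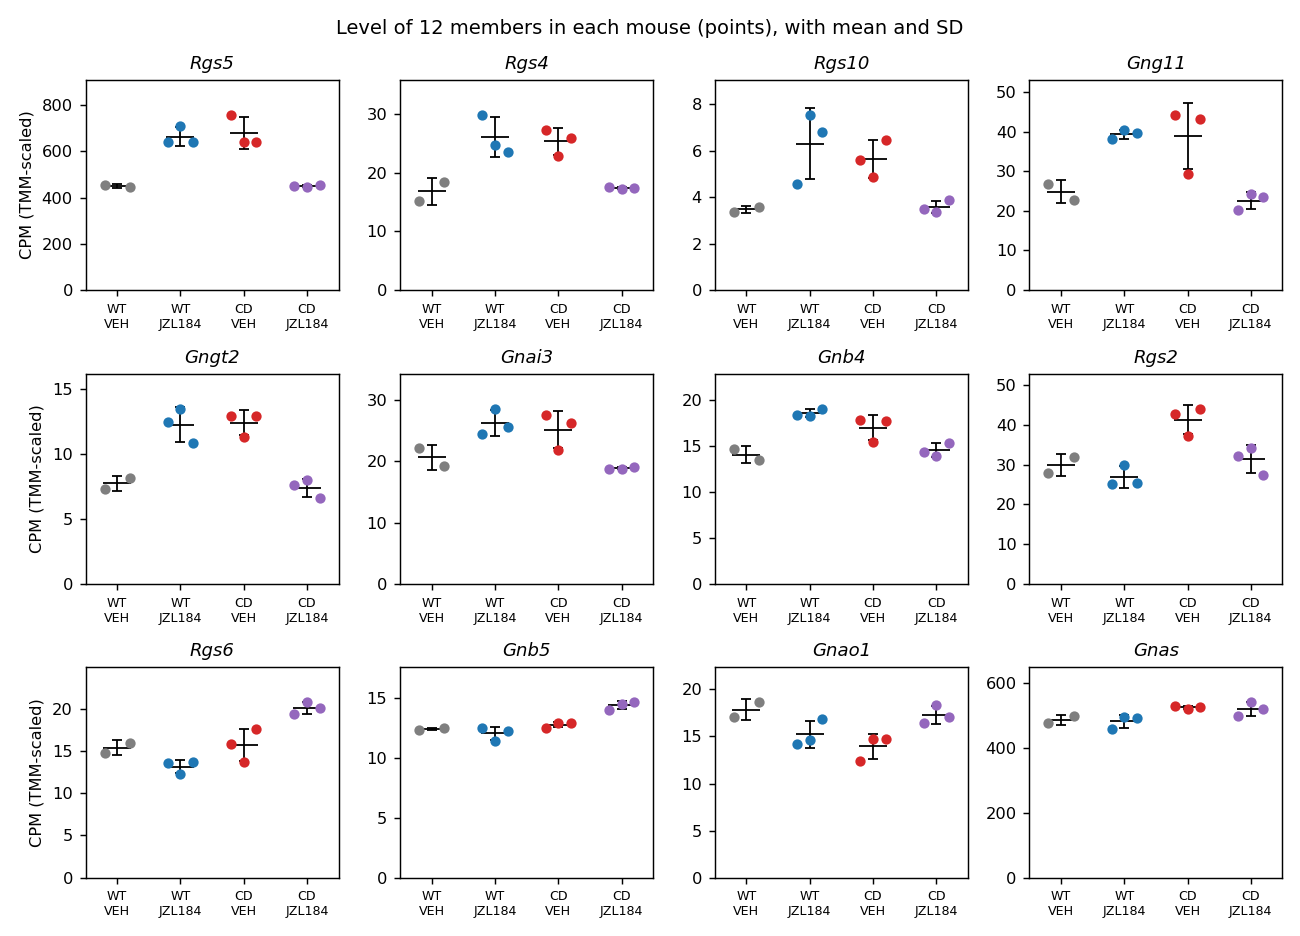
TMM-scaled CPM of 12 members in each of the 11 mice by group, with the group mean and SD (n = 2 for WT VEH and 3 for the others; y axes start at 0). Rgs5, Rgs4, Rgs10, Gng11, Gngt2 and Gnb4 are higher in all WT JZL184 and CD VEH mice than in the others, Rgs2 is highest in CD VEH, Rgs6 and Gnb5 are highest in CD JZL184, and Gnas lies between 457 and 540 CPM in all mice.

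The partners of the G proteins were read from 4 lists of other genes. The shares of all genes called, given above for each comparison, are their background too. Of 16 heart receptors tested from 24 listed, 6 were higher and 3 lower in CD VEH than in WT VEH, 6 were higher and 2 lower with JZL184 in WT mice, and 3 were higher and 5 lower with JZL184 in CD mice. In the interaction 5 were positive and 8 negative, with a median of -0.31. The muscarinic receptor Chrm2, which signals through Gi and Go, had an interaction of 0.98 ± 0.15 (adjusted p = 0.000407), and the adenosine receptor Adora2a, which signals through Gs, one of -1.45 ± 0.15 (adjusted p = 0.00011). The α1-adrenergic receptor Adra1a, which uses Gq, fell in CD VEH (-0.71 ± 0.20, adjusted p = 0.0199) and rose with JZL184 in CD mice (0.63 ± 0.18, adjusted p = 0.0197). Ednrb (-0.99 ± 0.16) and Ptger4 (-1.26 ± 0.19) had called negative interactions. Among the other listed receptors, Ednra and Adra1d went the other way in group means. Ednra averaged 26.8 CPM in WT VEH, 20.1 in WT JZL184, 19.5 in CD VEH and 22.25 in CD JZL184. Adra1d averaged 2.57, 1.84, 1.96 and 2.92 CPM in the same order. The cannabinoid receptor Cnr1 and the receptor Gpr55 were at the edge of detection, with at most 4 counts in any mouse and some mice at 0. Cnr2 had 48 to 111 counts and did not pass the filter of the test.

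Of 16 effectors tested from 19, 1 was higher and 6 lower in CD VEH than in WT VEH, 2 were higher and 7 lower with JZL184 in WT mice, and 6 were higher and 2 lower with JZL184 in CD mice. In the interaction 8 were positive and 3 negative, with a median of 0.30. The potassium channel subunits Kcnj3 and Kcnj5, which open on binding Gβγ and make up the muscarinic potassium current, had interactions of 1.05 ± 0.17 (adjusted p = 0.000527) and 0.99 ± 0.15 (adjusted p = 0.000407). The main adenylyl cyclases of heart muscle, Adcy5 and Adcy6, had interactions of 0.70 ± 0.09 (adjusted p = 0.000236) and 0.95 ± 0.14 (adjusted p = 0.000359), and Adcy4 one of -0.70 ± 0.09 (adjusted p = 0.000251). Plcb1, a phospholipase driven by Gq, rose in CD VEH (0.51 ± 0.16, adjusted p = 0.0331) and fell with JZL184 in CD mice (-0.53 ± 0.14, adjusted p = 0.0152), while Plcb3 and Arhgef1 passed no comparison.

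Of the 7 receptor kinases and arrestins, which switch receptors off, 4 had a called interaction: Grk3 (0.44 ± 0.12), Grk4 (0.73 ± 0.21), Arrb1 (-0.42 ± 0.16) and Arrb2 (-0.77 ± 0.22). The median of the list was -0.13. Grk5, a kinase of β-adrenergic receptors, was higher in CD mice under either treatment: 0.82 ± 0.12 (adjusted p = 0.00212) between the vehicle groups and 0.69 ± 0.10 (adjusted p = 0.000981) between the JZL184 groups. It was the only gene of these 4 lists called between CD JZL184 and WT VEH (0.84 ± 0.12, adjusted p = 0.00874), and its interaction did not pass (-0.13 ± 0.15, adjusted p = 0.498). Grk2, the main receptor kinase of the heart, passed no comparison. Of 11 chaperones and other regulators tested from 14, 5 had a positive and 3 a negative called interaction, with a median of 0.35. Gpsm3, a Gi regulator of leukocytes, had the largest in size (-1.28 ± 0.30, adjusted p = 0.00404).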

How the data were processed

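RNA was taken from ventricles of 11 mice. The deposited values are estimated counts per gene, which the authors made with Salmon 0.7.2 on Ensembl release 85 transcripts (mm10) and summed with tximport; the strandedness of the libraries is not given in the sources used here. Estimated counts were rounded to whole numbers. Totals were 69660232 to 92251443 per mouse. Gene names and lengths came from GENCODE M21, and promoters from RefSeq. Data columns were assigned to groups by name, and no column lacked a group. Genes with an average of at least 1 log2 CPM were tested in edgeR 4.0.16 (R 4.3.3, TMM scaling, quasi-likelihood test, 1 model over 4 groups), with Benjamini-Hochberg adjustment over all 11319 genes and a threshold of 0.05. The code was tested on simulated data. Alternatives were RLE and upper quartile scaling, DESeq2 1.42.0, 3 other filters on low counts, removal of mitochondrial genes, length and GC offsets, fits to the compared groups alone and omission of each mouse. All Gα members and every other member with a call are named, and mouse values are given for members with an interaction call. Members and gene lists were chosen with earlier results of these data known. An exact permutation test of a single value could not go below p = 0.1 with 3 against 3 mice, so none was used.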

Additional observations from a re-analysis of the deposited data

Results flagged for a closer look

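For 19 of the 29 tested members the JZL184 difference in CD mice departed from that in WT mice by the edgeR interaction test, as it did for 51.5% of all genes. The values here are the log2 difference in CD mice minus that in WT mice. Among RGS genes they were negative for Rgs10 (-1.51), Rgs4 (-1.17), Rgs5 (-1.15), Rgs19 (-0.84) and Rgs3 (-0.80). Among Gγ genes they were negative for Gng11 (-1.45), Gngt2 (-1.40), Gng2 (-0.84), Gng10 (-0.77), Gng5 (-0.60) and Gng12 (-0.44), and among Gβ genes for Gnb4 (-0.63), Gnb1 (-0.44) and Gnb2 (-0.34). The inhibitory α subunits Gnai3 (-0.76) and Gnai2 (-0.46) were negative as well. Positive values belonged to Rgs6 (0.58), Gnao1 (0.53) and Gnb5 (0.22), and the last of these was lost in 12 alternatives. With an offset for transcript length the values of Gnb2, Gng2, Gng5, Gng12 and Rgs19 were no longer called, nor were those of Gnai2, Gnb2 and Rgs19 without WT VEH mouse C or that of Rgs19 without WT VEH mouse D. No test for single mice that stand apart was run within groups of 2 or 3.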

How the results depend on the processing

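Each comparison of 2 groups was repeated under 10 other settings, the interaction under 9 of them, and all without each of the 11 mice. No call of a member changed direction. Of 75 calls, 33 held under every setting, 53 held under every setting that kept all mice, and 17 were lost with an offset for transcript length. Of 2069 repeats of the 99 results that were not called, 52 gave a call. Leaving out mice gave 1 to 17 called members between CD VEH and WT VEH (14 with all mice, and 3.41 to 37.0% of all genes in the same fits), 9 to 18 with JZL184 in CD mice (15, and 18 to 41.0%), 4 to 15 with JZL184 in WT mice (12, and 4.93 to 39.5%), 12 to 17 between the JZL184 groups (15, and 26.1 to 43.0%), 15 to 20 for the interaction (19, and 40.5 to 56.6%) and 0 between CD JZL184 and WT VEH (0, and 0.106 to 0.291%). Over all comparisons, most calls were lost without WT VEH mouse C (26), D (21), CD VEH mouse E (16) or A (14), and the count of 12 between the JZL184 groups came without CD JZL184 mouse A. Between CD JZL184 and WT VEH, DESeq2 called 1 member and 104 of all genes, and a fit to these groups alone called 1 member and 88 of all genes, where edgeR on all mice called 0 and 21. A fit to the WT groups alone called 1650 of all genes, where the fit to all mice called 3330. The causes were not tested. With counts scaled by library totals in place of TMM, 20 of 128 group means of members moved by more than 1 SD. No paired analysis was possible because the data columns carry letters and not the replicate numbers of the labels.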
